A study of Rattus norvegicus with 12 samples.

Results

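The S100 family of calcium-binding proteins was followed across the cerebral cortex of 12 rats. The members were chosen by name: S100a1, S100a4, S100a6, S100a8, S100a9, S100a10, S100a11, S100a13, S100a16 and S100b. Values were analysed for 9 of the 10 members, out of 17268 gene rows in all, and S100a13 was not analysed here. The rats were adult male Sprague Dawley animals, with 3 rats and 1 library per rat in each of 4 groups. Sham rats were operated on without a clot, and in Model rats a clot injected into the middle cerebral artery caused an embolic stroke. The rats of the rt-PA group had the same stroke and received recombinant tissue type plasminogen activator, a clot-dissolving drug, at 6 h. rt-PA+Acu rats had the stroke, the drug at 6 h and Xingnao Kaiqiao acupuncture at 2 h, at the Shuigou and Neiguan points. The tissue was whole cortex, so fewer cells of a type and less RNA per cell cannot be told apart. No group had acupuncture alone, so acupuncture was seen only together with the stroke and the drug.

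S100 proteins are small, mostly form dimers, and carry a pair of EF-hand sites that change the shape of the protein when calcium binds. Inside cells they bind annexins, myosins and other partners and thereby act on membranes, the cytoskeleton and secretion. Some are also released and then act on receptors such as RAGE (gene Ager) and the TLR4 complex. In brain, S100b is made largely by astrocytes and by cells of the oligodendrocyte lineage, while S100a8 and S100a9 together form calprotectin, an abundant protein of neutrophils and monocytes.

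In the RefSeq gene table of build GRCr8, used here for gene order only, the other 9 members lay on the same chromosome and S100b on another. S100a1 and S100a13 were neighbours there, as were S100a8 and S100a9, and S100a11 and S100a10. S100a4 and S100a6 were each next to S100a5. The RefSeq promoter table held 7 of the 10 members, each as 250 bases before and 50 after the start of the gene. The members without an entry were S100a1, S100a8 and S100a10. The promoters of 5 members whose RNA moved with stroke or treatment are shown, 5′ to 3′ on the strand of the gene, because these members are neighbours or relatives with different starts. Capitals mark a TATA box, whose letters are TATAAA, or a GC box, the motif of the factor SP1, whose letters are GGGCGG.
S100a9: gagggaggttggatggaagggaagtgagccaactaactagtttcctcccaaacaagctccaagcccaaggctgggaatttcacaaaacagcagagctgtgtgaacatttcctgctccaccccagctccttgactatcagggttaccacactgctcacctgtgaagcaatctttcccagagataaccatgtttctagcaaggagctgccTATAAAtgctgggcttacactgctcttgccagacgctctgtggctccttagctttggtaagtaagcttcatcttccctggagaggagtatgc
S100a4: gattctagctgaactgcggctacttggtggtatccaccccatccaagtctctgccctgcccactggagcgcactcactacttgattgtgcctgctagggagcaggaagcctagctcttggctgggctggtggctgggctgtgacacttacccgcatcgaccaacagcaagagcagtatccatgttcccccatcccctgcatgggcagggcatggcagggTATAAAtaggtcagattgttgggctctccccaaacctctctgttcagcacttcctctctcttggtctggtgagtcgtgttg
S100a6: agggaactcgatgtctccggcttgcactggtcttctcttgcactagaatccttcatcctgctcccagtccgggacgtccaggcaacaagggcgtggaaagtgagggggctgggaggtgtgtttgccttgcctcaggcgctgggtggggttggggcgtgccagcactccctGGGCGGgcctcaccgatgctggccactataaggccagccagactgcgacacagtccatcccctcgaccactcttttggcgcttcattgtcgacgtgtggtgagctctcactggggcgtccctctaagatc
S100a11: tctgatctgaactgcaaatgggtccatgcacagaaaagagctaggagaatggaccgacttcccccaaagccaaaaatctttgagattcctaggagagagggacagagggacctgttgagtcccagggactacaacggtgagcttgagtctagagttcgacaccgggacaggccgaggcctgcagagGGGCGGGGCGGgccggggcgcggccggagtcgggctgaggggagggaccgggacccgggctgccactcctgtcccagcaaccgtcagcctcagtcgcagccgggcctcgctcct
S100b: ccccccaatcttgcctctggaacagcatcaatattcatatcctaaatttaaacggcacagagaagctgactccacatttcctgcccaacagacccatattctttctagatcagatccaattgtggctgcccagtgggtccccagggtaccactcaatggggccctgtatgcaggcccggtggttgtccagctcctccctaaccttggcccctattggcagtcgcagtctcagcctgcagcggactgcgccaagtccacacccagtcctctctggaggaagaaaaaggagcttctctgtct

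Their positions in GRCr8 were S100a9 chr2:178490573-178490872 on the minus strand, S100a4 chr2:178388279-178388578 on the plus strand, S100a6 chr2:178398287-178398586 on the plus strand, S100a11 chr2:181874882-181875181 on the plus strand and S100b chr20:12381032-12381331 on the minus strand. The TATA box began 42 bases before the start in S100a9 and 31 bases before it in S100a4. The GC box began 80 bases before the start in S100a6, and S100a11 held 2 overlapping GC boxes beginning 64 and 59 bases before it. S100a13 also held a GC box, whereas S100a16 and S100b held neither motif. Among all 33469 promoters of the same length, searched on both strands, 14.2% held TATAAA and 33.1% held GGGCGG. A further 10 motifs were searched on both strands. ACGTG (hypoxia response) was in S100a6 and in 19.3% of all promoters, TGTGGT (RUNX) in S100a13, S100a6 and S100a9 and in 17.3%, and GAGGAAGT (PU.1) in S100a4 and in 2.42%. The letters of the AP-1 (TGANTCA, 7.33% of all promoters), STAT (TTCNNNGAA, 8.87%), C/EBP (TTGCNNAA, 10.6%), SOX (ACAAAG, 18.8%), NF-kB (GGGNNNNTCC, 17.9%), E-box (CACGTG, which contains ACGTG, 6.42%) and ETS (ACCGGAAG, 2.49%) motifs were not in these 7 windows. A match is a match of letters only.

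RNA was measured by sequencing of poly(A)-selected RNA, and the deposited values were raw counts per gene. Total counts per library lay between 11678450 and 13616935, and 3 counts stood for 0.208 to 0.262 CPM, counts per 1000000 after TMM scaling of the library size. Markers of cortical neurons were present in every library, with a summed level of 8 genes from 4184 to 8188 CPM. Oligodendrocyte markers differed widely among rats of the same stroke group, from 3354 to 21907 CPM as a sum of 8 genes in rt-PA+Acu. The 6 libraries of a comparison were fitted together by the quasi-likelihood method of edgeR, and a gene was called at a Benjamini-Hochberg adjusted p under 0.05. Because counts grow with transcript length, levels were compared between libraries and not between genes.

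In Model vs Sham, 6 of the 9 members were called, 3 higher (S100a10, S100a4 and S100a11) and 3 lower (S100b, S100a1 and S100a16), at a background of 54% of the 12884 genes tested. By direction the background was 27.3% higher and 26.6% lower, so the members were called about as often as genes in general. The median log2 fold change was 0.32 over the members and 0.01 over all genes tested. S100a10 had the largest change among the members and S100b the largest fall.

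In rt-PA vs Model, edgeR called 0 of the 9 members at a background of 0% of 12941 genes. At an unadjusted p under 0.05 it gave 4 members (S100a4, S100a6, S100a9 and S100a11), against 9.92% of all genes. DESeq2 called 3 members, S100a4, S100a6 and S100a11, all higher in rt-PA, at a background of 1.48%. In the same 3 members the rt-PA and Model libraries did not overlap, which was so for 16% of all genes. The median log2 fold change was 1.5 over the members and 0.00 over the full set of genes.

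The comparison of rt-PA+Acu with rt-PA is called the acupuncture comparison from here on, since only rt-PA+Acu rats had acupuncture. In it 6 of 9 members were called at a background of 34.8% of 12999 genes. S100a9, S100a8, S100a11, S100a10 and S100a6 were lower with acupuncture, where the background in that direction was 17.7%, and S100b was higher, where it was 17%. The median log2 fold change was -1.35 over the members and 0.00 over the full set of genes.

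In rt-PA+Acu vs Sham, 4 of the 8 members tested were called at a background of 5.1% of 12775 genes, with S100a4 and S100a10 higher (background 1.7%) and S100b and S100a1 lower (3.4%). This count was unsteady, since leaving out Sham replicate 1, 2 or 3 left 0 members called, with 6 or 7 at an unadjusted p under 0.05 (6 with all libraries, background 23.2%), and leaving out rt-PA+Acu replicate 2 or 3 left 2. Library size alone in place of TMM left 1, and DESeq2 called 6 at a background of 11.2%. The comparison rt-PA vs Sham was chosen after seeing the data. There 9 of 9 members were called, 6 higher (background 27.4%) and 3 lower (27.3%), at a background of 54.7% of 13023 genes. With library size alone the median log2 fold change of all genes in rt-PA vs Sham moved from 0.00 to 0.15 and the split of all calls from 3570 higher and 3557 lower to 4617 and 2801, and 8 members were called. The comparisons share the Sham, Model or rt-PA libraries, so they are not independent of each other.

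**Figure D1:**
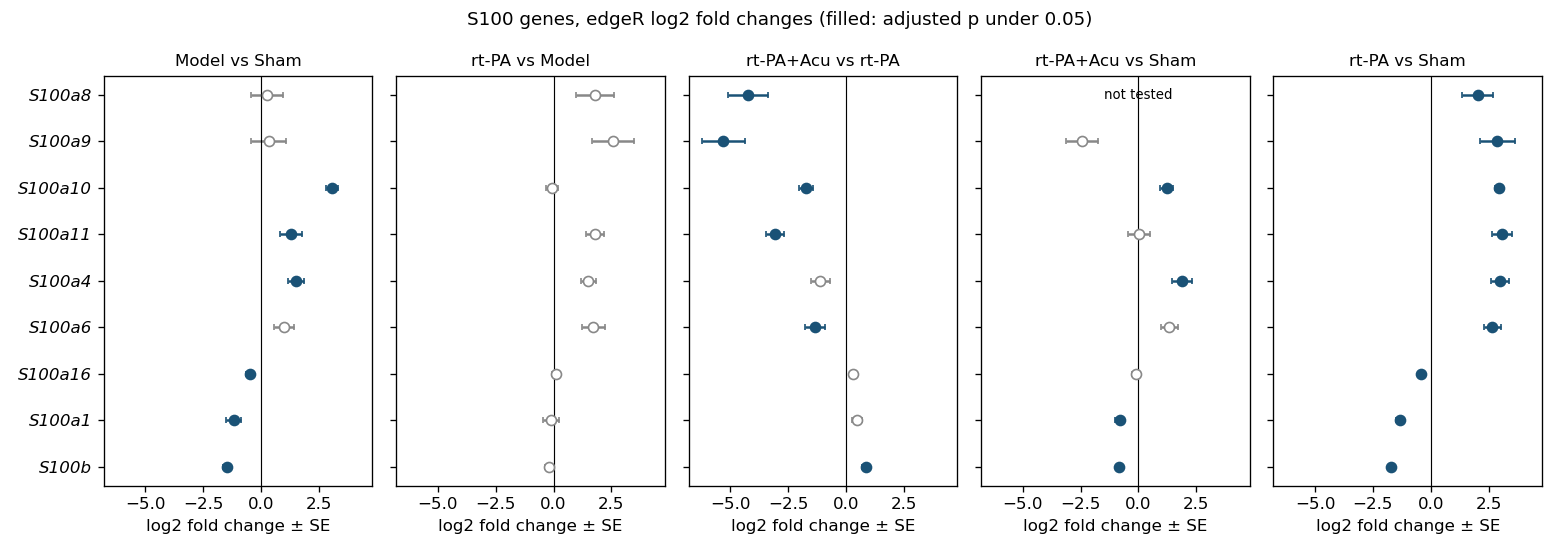
Log2 fold changes (x axis) with standard errors of the 9 S100 genes (rows) in each of 5 comparisons (panels), from edgeR, with filled points for an adjusted p under 0.05. Changes reach 3.06 for S100a10 in Model vs Sham, no point is filled in rt-PA vs Model, and S100a9 lies at -5.31 in the acupuncture comparison.

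S100a8 and S100a9, the subunits of calprotectin, were the members that fell most in the acupuncture comparison. S100a9 had 45, 13 and 35 counts in the 3 Sham libraries, 7, 33 and 76 in Model, 515, 231 and 57 under rt-PA and 11, 4 and 2 under rt-PA+Acu. As CPM these were 0.995 to 3.64 in Sham, 0.534 to 6.28 in Model, 4.20 to 35.7 under rt-PA and 0.150 to 0.926 under rt-PA+Acu. The rt-PA libraries spanned a wide range and overlapped with Model, while all rt-PA+Acu libraries lay below every library of the other groups except Model replicate 1. S100a8 had 23, 10 and 19 counts in Sham, 5, 17 and 40 in Model, 162, 66 and 22 under rt-PA and 2, 7 and 2 under rt-PA+Acu. It had the same high and low libraries within Sham, Model and rt-PA as S100a9.

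In Model vs Sham neither gene passed the test, with log2 fold changes of 0.26 ± 0.69 (SE, adjusted p = 0.768) for S100a8 and 0.32 ± 0.76 (adjusted p = 0.738) for S100a9, and both turned negative without Model replicate 3, at -0.65 and -0.62. In rt-PA vs Model the log2 fold changes were 1.79 ± 0.83 for S100a8 and 2.57 ± 0.90 for S100a9 (adjusted p = 0.529 and 0.419). In the acupuncture comparison, S100a9 fell 39.6-fold (log2 fold change -5.31 ± 0.93, adjusted p = 0.00607) and S100a8 fell 18.9-fold (-4.24 ± 0.87, adjusted p = 0.00993). Single libraries set the size of these falls. Without rt-PA replicate 1 the log2 fold changes were -4.45 for S100a9 and -3.35 for S100a8, without rt-PA+Acu replicate 1 that of S100a9 was -6.22, and without rt-PA+Acu replicate 2 that of S100a8 was -5.13, all still called.

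In rt-PA vs Sham, S100a9 rose with a log2 fold change of 2.87 ± 0.76 (adjusted p = 0.0134) and S100a8 with 2.02 ± 0.68 (adjusted p = 0.0352). Without rt-PA replicate 1 these values were 2.02 and 1.15, and the call of S100a8 was lost there (adjusted p = 0.131) and without each of the 3 Sham libraries. In rt-PA+Acu vs Sham, S100a9 had a log2 fold change of -2.43 ± 0.70 (adjusted p = 0.0874), and DESeq2 called it (adjusted p = 0.0202). S100a8 was too low to be tested there, with 10 to 23 counts in Sham and 2 to 7 under rt-PA+Acu.

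The ratio of S100a8 to S100a9 counts, with 1 count added to each, was compared between groups on the log2 scale. It was -0.71 ± 0.32 (SD, n = 3) in Sham, -0.75 ± 0.29 in Model, -1.60 ± 0.24 under rt-PA and -0.44 ± 1.39 under rt-PA+Acu. In all 3 rt-PA libraries the ratio was below all Model and Sham libraries, and the difference from Model was -0.85 (exact two-sided permutation test, p = 0.1, adjusted over 4 comparisons 0.4), where 0.1 is the smallest p that 3 against 3 allows. Under rt-PA+Acu the ratio rested on 2 to 11 counts and spread from -2 to 0.68.

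Markers of neutrophils and monocytes also differed between the groups, but not always where S100a8 and S100a9 did. In Model vs Sham, where neither gene passed, 5 of the 7 neutrophil markers tested rose (background 27.3%) and 1 fell (26.6%). Those that rose included Trem1 (log2 fold change 7.82 ± 0.84, adjusted p = 0.000501) and Il1r2 (5.66 ± 0.40, adjusted p = 2.73e-05). The 12 neutrophil markers summed to 56.5 to 78.6 CPM in Sham, 101 to 132 in Model, 124 to 143 under rt-PA and 43.0 to 63.6 under rt-PA+Acu, and Mmp9 and Selplg, which other brain and immune cells also make, gave much of these sums. Of the 8 put to the test in the acupuncture comparison, 5 were lower (background 17.7%), 1 was higher (17%) and 2 did not pass. Cxcr2, the chemokine receptor of neutrophils, was at 14.7, 4.73 and 4.12 CPM under rt-PA and at 0.0872 to 0.299 CPM under rt-PA+Acu. Mmp8, neutrophil collagenase, had 0 counts in every rt-PA+Acu library, where 3 counts would be 0.225 to 0.261 CPM. It was also low elsewhere, at 1 to 6 counts in Sham, 2 to 16 in Model and 11 to 39 under rt-PA. Ltf, a neutrophil granule gene, had 0 counts in all 12 libraries. The 9 monocyte and macrophage markers summed to 255 to 332 CPM in Sham and 421 to 485 CPM in Model. Under rt-PA the sums were 1264, 726 and 695 CPM, and under rt-PA+Acu 250 to 315 CPM. Fn1, Gpnmb, Lyz2 and Vcan gave most of these sums, and Fn1 and Vcan were already at 128 to 153 and 62.9 to 110 CPM in Sham. In the acupuncture comparison, 8 of the 9 were lower (background 17.7%). In rt-PA vs Model edgeR called 0 markers of either list (background 0%). All 9 monocyte and macrophage log2 fold changes were positive there, 6 without overlap of the groups (background 16%), and DESeq2 called 5 (1.48%). Of the 8 neutrophil markers tested there, 7 changes were positive and 1 negative, with 1 not overlapping and 1 called by DESeq2. Within rt-PA, replicate 1 had the most and replicate 3 the least of S100a8, S100a9, Cxcr2 and the monocyte marker Ly6c, which was at 8.80, 2.01 and 0.958 CPM. The sum of neutrophil markers was 143, 124 and 134 CPM in these libraries. Csf3r, Trem1, Fpr1, Selplg, Ccr2, Lyz2, Cd68, Plac8 and Gpnmb also had this order, but the remaining neutrophil and monocyte markers did not. Among those, Mmp9 was at 70.1, 86.9 and 105 CPM and Msr1 at 35.6, 47.8 and 38.0 CPM. The part of these cells in the levels of S100a8 and S100a9 was not tested.

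By root mean square difference of centred log2 CPM over the 12 libraries, genes among the most like S100a9, of 12736 compared, were Ccl9 (0.83), which encodes a chemokine, and Nos2 (0.86), which encodes inducible nitric oxide synthase.

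**Figure D2:**
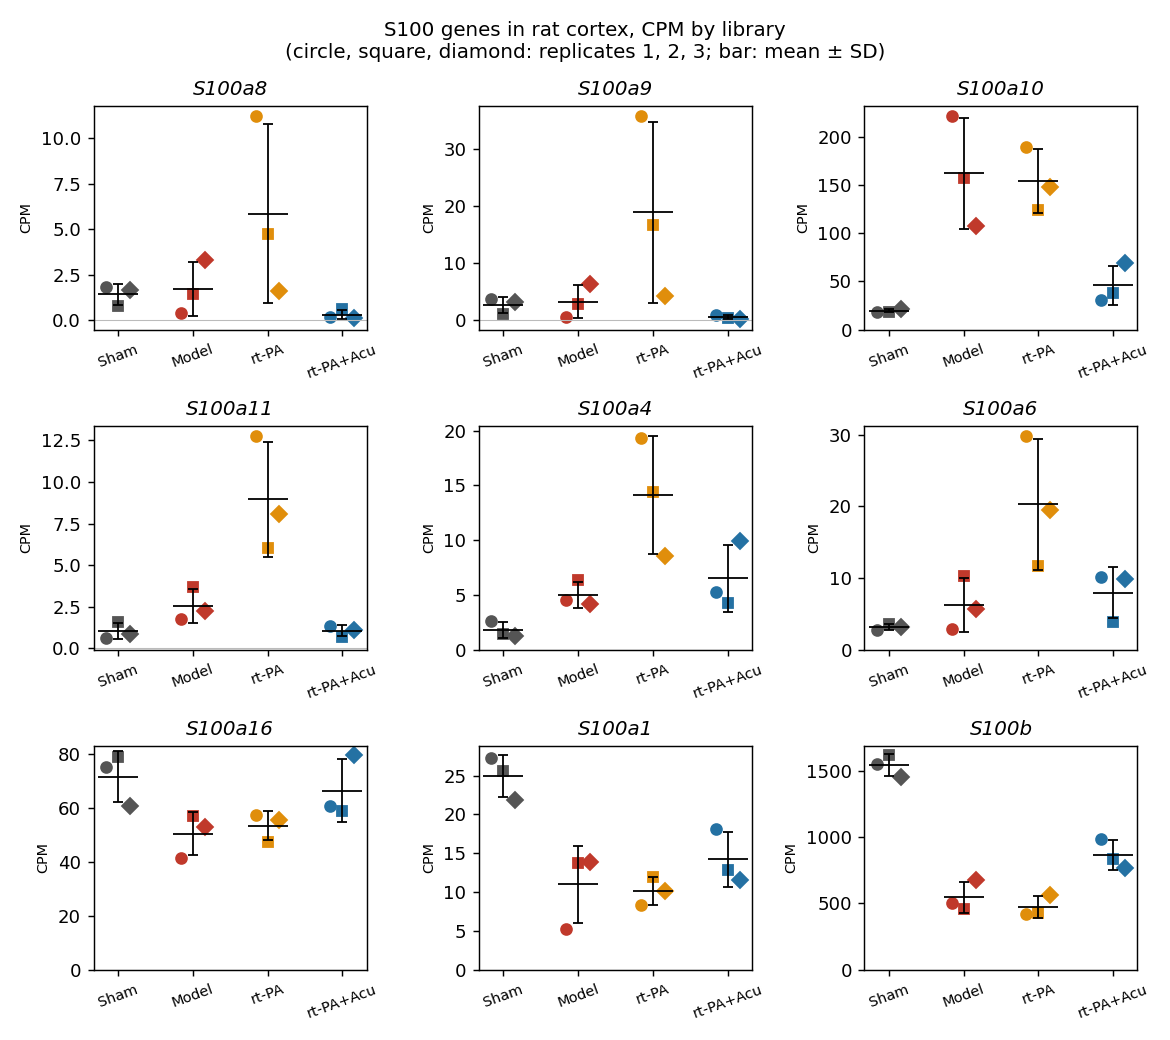
CPM (y axis, linear, from 0) of each of the 9 S100 genes in the 4 groups, with a marker for each of the 3 libraries and bars for the mean ± SD. S100a8, S100a9, S100a11, S100a4 and S100a6 have their highest mean under rt-PA, S100a10 is high in both Model and rt-PA, and all Sham libraries of S100b and S100a1 lie above all others.

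S100a8 and S100a9 act outside cells on a set of receptors, and 9 genes, receptors and signalling genes together, were analysed here. In Model vs Sham 3 of the 9 rose, none fell and 6 did not pass, a smaller share called than the 54% over all genes. Cd14, the co-receptor of TLR4, was at 0.612 to 1.22 CPM in Sham, 75.9 to 101 in Model, 95.2 to 119 under rt-PA and 0.926 to 9.95 under rt-PA+Acu, with log2 fold changes of 6.80 ± 0.23 in Model vs Sham (adjusted p = 3.41e-06) and -4.49 ± 0.64 in the acupuncture comparison (adjusted p = 0.00316). Myd88, the adaptor of TLR signalling, rose by 2.41 ± 0.21 and fell by 2.10 ± 0.32 on the log2 scale in the same comparisons, and Mcam, an endothelial and pericyte adhesion protein that binds S100a8 and S100a9, rose by 1.25 ± 0.24 and fell by 1.78 ± 0.24. Tlr4 itself was at 2.76 to 3.41 CPM in Sham and 3.89 to 5.92 in Model without passing the test (log2 fold change 0.63, adjusted p = 0.0806), and fell in the acupuncture comparison (-1.20 ± 0.30, adjusted p = 0.021). Ager, which encodes RAGE, stayed between 0.502 and 3.14 CPM in the 12 libraries and passed no test. In the acupuncture comparison, where 34.8% of all genes were called, 4 of the 9 fell and 1 rose, Nptn, a neuronal relative of the S100a9 receptor Bsg.

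S100a10, also called p11, pairs with annexin A2 (gene Anxa2) in a complex that binds plasminogen and tissue type plasminogen activator at the cell surface. Its counts were 232, 245 and 246 in Sham, 2906, 1857 and 1300 in Model, 2735, 1730 and 2001 under rt-PA and 369, 434 and 925 under rt-PA+Acu. The CPM were 18.8, 18.8 and 21.5, then 222, 157 and 107, then 190, 124 and 147, and last 31.1, 37.8 and 69.2. Sham was lowest, rt-PA+Acu lay between without overlap, and Model and rt-PA were highest and overlapped each other.

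S100a10 rose 8.31-fold in Model vs Sham (log2 fold change 3.06 ± 0.25, adjusted p = 5.02e-05), and the log2 fold change in rt-PA vs Model was -0.07 ± 0.26 (adjusted p = 0.958). It fell 3.33-fold in the acupuncture comparison (-1.74 ± 0.31, adjusted p = 0.00635). In rt-PA+Acu vs Sham it was 2.35-fold higher (1.23 ± 0.28, adjusted p = 0.0476), a call lost without rt-PA+Acu replicate 2, without each Sham library and with library size alone, at adjusted p up to 0.185. The calls in Model vs Sham and in the acupuncture comparison held in all 13 alternatives.

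Anxa2 moved with S100a10 and over a wider range. It was at 11.7 to 16.7 CPM in Sham, 134 to 226 in Model, 140 to 249 under rt-PA and 13.8 to 27.6 under rt-PA+Acu. Its log2 fold changes were 3.66 ± 0.22 in Model vs Sham (adjusted p = 1.56e-05) and -3.16 ± 0.31 in the acupuncture comparison (adjusted p = 0.00118), with 0.61 ± 0.27 left against Sham (adjusted p = 0.214). The log2 ratio of S100a10 to Anxa2 counts was 0.44 ± 0.26 (SD, n = 3) in Sham, -0.21 ± 0.16 in Model, -0.36 ± 0.17 under rt-PA and 1.02 ± 0.65 under rt-PA+Acu. All Model libraries lay below all Sham libraries, and all rt-PA+Acu libraries above all rt-PA libraries, by 1.38 on average. Both differences gave p = 0.1 in the exact two-sided permutation test (adjusted over 4 comparisons 0.2), the smallest p possible.

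The genes most like S100a10 over the 12 libraries were Vwa5a (0.21), Ctsk (0.22), which encodes cathepsin K, a lysosomal collagen-degrading protease, and Kcnk10 (0.27), a two-pore-domain potassium channel gene. RefSeq lists 1 pseudogene named after S100a10, and 5 pseudogenes and 2 further genes named after S100a11. The authors counted uniquely mapped read pairs, so reads shared with such copies could be missing from the values of S100a10 and S100a11, which are uncertain to that extent.

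**Figure D3:**
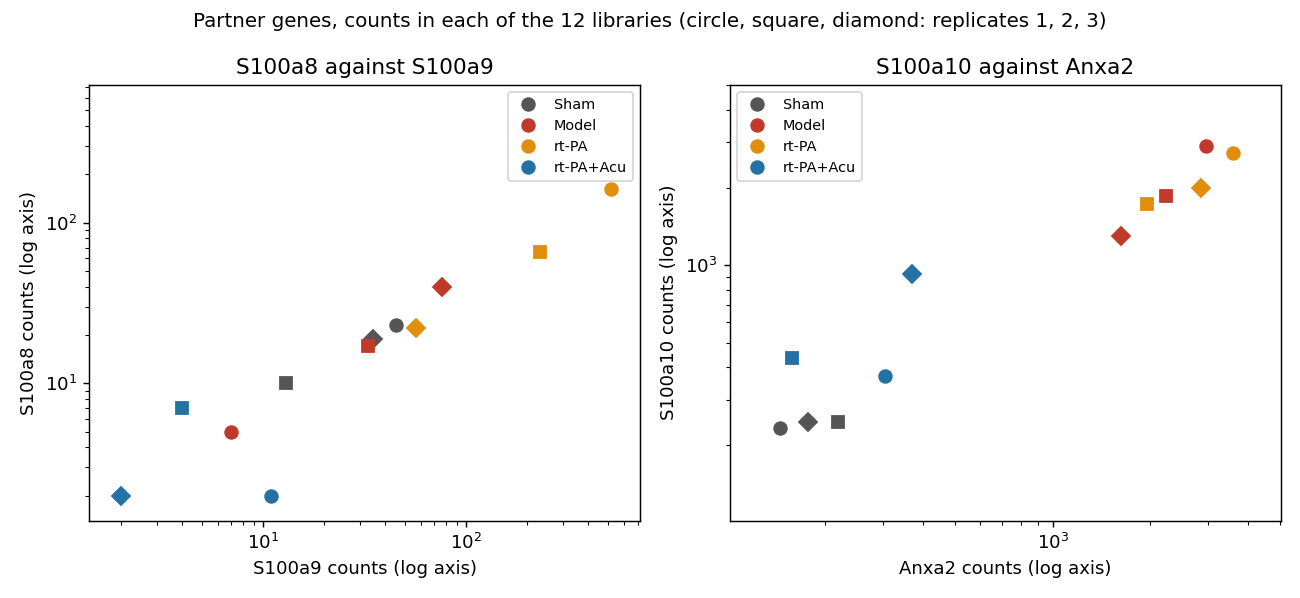
Counts of S100a8 against S100a9 and of S100a10 against Anxa2, both axes on a log scale, with 1 point per library in the color of its group and a marker shape for each replicate. S100a8 and S100a9 rise together from 2 counts under rt-PA+Acu to 162 and 515 in rt-PA, and S100a10 and Anxa2 from 232 and 145 counts in a Sham library to 2906 and 2963 in a Model library.

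S100a11, S100a4 and S100a6 are intracellular members that bind annexins or the cytoskeleton. S100a11, a partner of annexin A1, had 8, 21 and 10 counts in Sham, 23, 44 and 27 in Model, 184, 84 and 110 under rt-PA and 16, 8 and 15 under rt-PA+Acu. The rt-PA libraries lay above all the others, and the rt-PA+Acu libraries lay within the Sham range of CPM. S100a11 rose in Model vs Sham (log2 fold change 1.29 ± 0.47, adjusted p = 0.0449), but this call was lost in 6 of 12 alternatives, which were DESeq2, no low count filter, and leaving out Sham replicate 1 or 3 or Model replicate 2 or 3. In rt-PA vs Model the log2 fold change was 1.81 ± 0.39 (adjusted p = 0.296, and 0.0039 with DESeq2). S100a11 fell 8.40-fold in the acupuncture comparison (-3.07 ± 0.39, adjusted p = 0.00226), a call that held in all 12 alternatives, and had a log2 fold change of 0.01 ± 0.48 against Sham (adjusted p = 0.99).

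S100a4, which binds nonmuscle myosin IIA (gene Myh9) and is found in fibroblasts, immune cells and some reactive glia, was at 2.59, 1.45 and 1.22 CPM in Sham, 4.50, 6.34 and 4.13 in Model, 19.3, 14.4 and 8.54 under rt-PA and 5.30, 4.27 and 9.95 under rt-PA+Acu. Sham lay below all the other groups, and rt-PA+Acu overlapped with both Model and rt-PA. S100a4 rose 2.85-fold in Model vs Sham (log2 fold change 1.51 ± 0.36, adjusted p = 0.00812). The log2 fold change in rt-PA vs Model was 1.5 ± 0.33 (adjusted p = 0.296, and 0.00495 with DESeq2). In the acupuncture comparison, it was -1.11 ± 0.40 (adjusted p = 0.0641), which passed with DESeq2 (0.024), in the fit over all 12 libraries (0.0331) and without rt-PA replicate 3 or rt-PA+Acu replicate 3. S100a4 was 3.71-fold above Sham under rt-PA+Acu (1.89 ± 0.43, adjusted p = 0.0465), a call lost in 7 of 13 alternatives, among them the fits without any 1 of the Sham libraries and without rt-PA+Acu replicate 2 or 3 (adjusted p up to 0.187).

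S100a6, or calcyclin, which binds annexins and the ubiquitin ligase component Cacybp, was at 2.75, 3.52 and 3.23 CPM in Sham, 2.82, 10.2 and 5.62 in Model, 29.9, 11.6 and 19.4 under rt-PA and 10.2, 3.92 and 9.80 under rt-PA+Acu. The rt-PA libraries were the highest, and Model overlapped with both Sham and rt-PA+Acu. In Model vs Sham its log2 fold change was 0.98 ± 0.44 (adjusted p = 0.0888), called without Model replicate 1 (0.0106). The value for rt-PA vs Model was 1.71 ± 0.49, with adjusted p = 0.364 in edgeR and 0.0254 in DESeq2. S100a6 fell 2.54-fold in the acupuncture comparison (-1.35 ± 0.44, adjusted p = 0.0472), a call lost on leaving out rt-PA replicate 1 or 3 or any rt-PA+Acu library. In rt-PA+Acu vs Sham it was at 1.33 ± 0.37 (adjusted p = 0.0802), which was called by DESeq2 and without rt-PA+Acu replicate 2. Against Sham, the rt-PA group was 8.37-fold higher in S100a11, 7.89-fold in S100a4, 7.73-fold in S100a10 and 6.32-fold in S100a6, with the largest adjusted p of these at 0.000607.

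Of the 12 analysed binding partners of S100 proteins, 6 rose, 2 fell and 4 did not pass in Model vs Sham, where 54% of all genes were called, and 7 fell, 3 rose and 2 did not pass in the acupuncture comparison, where 34.8% were. Anxa1, the partner of S100a11, rose in the first (log2 fold change 1.33 ± 0.34, adjusted p = 0.0102) and fell in the second (-2.33 ± 0.24, adjusted p = 0.00123), with 25.6 to 38.7 CPM in rt-PA above 6.94 to 12.2 in Model. Myh9, the partner of S100a4, rose by 0.96 ± 0.11 and fell by 1.32 ± 0.25 on the log2 scale. Fgf1, a growth factor exported with S100a13, rose by 5.17 ± 0.86 and fell by 3.03 ± 0.38, with Model libraries at 370, 102 and 38.1 CPM. Ahnak, a scaffold bound by S100a10 and annexin A2, fell in the acupuncture comparison (-1.16 ± 0.20, adjusted p = 0.00581) and was also below Sham under rt-PA+Acu (-0.72 ± 0.14, adjusted p = 0.0315). The 3 partners that rose in the acupuncture comparison were Syt1 (0.84 ± 0.20, adjusted p = 0.0152), Anxa6 (0.78 ± 0.23, adjusted p = 0.0339) and Anxa11 (0.58 ± 0.13, adjusted p = 0.0155). Cacybp did not pass there (0.54 ± 0.30, adjusted p = 0.198).

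Markers of cells that contain S100a4, S100a6, S100a10 and S100a11 also differed between groups. The 6 endothelial markers summed to 160 to 204 CPM in Sham, 221 to 433 in Model, 295 to 426 under rt-PA and 101 to 112 under rt-PA+Acu. In Model vs Sham only 1 of the 6 was called, Kdr, at 12.8 to 20.5 CPM in Sham and 94.6 to 136 in Model (background 27.3% higher). There 4 of the 6 log2 fold changes were positive and 2 negative, those of Tie1 and Tek. All 6 fell in the acupuncture comparison (background 17.7%). The 8 meningeal and fibroblast markers summed to 207 to 351 CPM in Sham, 57.5 to 132 in Model, 129 to 380 under rt-PA and 151 to 293 under rt-PA+Acu, so that the rt-PA libraries spread by about as much as the groups differed. Pdgfra was the largest part of each sum, at 151 to 193 CPM in Sham, 28.7 to 57.6 in Model and 52.0 to 122 under rt-PA. In rt-PA vs Model edgeR called 0 of the 7 tested (background 0%) and DESeq2 2 (1.48%), with 6 log2 fold changes positive and 1 negative. All rt-PA libraries lay above all Model libraries in Col1a1, Col1a2, Dcn and Lum (log2 fold changes 2.11, 2.02, 2.35 and 2.31). That was 4 of the 7, against 16% of all genes in either direction. The part of these cells in the levels of S100a4, S100a6, S100a10 and S100a11 was not tested.

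S100b, the astrocyte and oligodendrocyte-lineage member, was at 1553, 1625 and 1457 CPM in Sham, 503, 456 and 680 in Model, 421, 429 and 567 under rt-PA and 990, 837 and 766 under rt-PA+Acu. Sham was highest, rt-PA+Acu lay between without overlap, and Model and rt-PA were lowest and overlapped. S100b fell 2.81-fold in Model vs Sham (log2 fold change -1.49 ± 0.15, adjusted p = 0.000107), and the log2 fold change in rt-PA vs Model was -0.21 ± 0.18 (adjusted p = 0.759). It was 1.83-fold higher under rt-PA+Acu than in rt-PA (0.87 ± 0.16, adjusted p = 0.0076). Both calls held in all 13 alternative fits, but the second is lost where an absolute log2 fold change over 1 is also required. Under rt-PA+Acu it was still 1.79-fold below Sham (-0.84 ± 0.13, adjusted p = 0.0143), a call lost in 4 of 13 alternative fits, among them those without Sham replicate 1, 2 or 3.

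Other astrocyte genes, apart from Gfap, moved in the direction of S100b in Model vs Sham and in the acupuncture comparison. Of 8 astrocyte markers, 7 fell (background 26.6%) and 1 rose (27.3%) in Model vs Sham. Under rt-PA+Acu 7 were higher than in rt-PA (background 17%). Aqp4, the astrocyte water channel, was at 566 to 912 CPM in Sham, 293 to 430 in Model, 297 to 466 under rt-PA and 798 to 845 under rt-PA+Acu, with log2 fold changes of -1.04 ± 0.19 in Model vs Sham (adjusted p = 0.00236) and 1.17 ± 0.18 in the acupuncture comparison (adjusted p = 0.00393). Gfap, the filament protein of reactive astrocytes, was the marker that rose in Model vs Sham (3.10 ± 0.18, adjusted p = 1.21e-05), and it was at 3212, 3115 and 3421 CPM under rt-PA and at 2186, 2181 and 4391 under rt-PA+Acu, a log2 fold change of -0.15 ± 0.28 (adjusted p = 0.694). Replicates 1 and 2 of rt-PA+Acu lay below every rt-PA library, and replicate 3 lay above them all. S100b and Gfap thus differed from Sham in opposite directions in each of the 3 stroke groups.

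The 8 oligodendrocyte markers summed to 12512 to 18693 CPM in Sham, 1709 to 8809 in Model, 2743 to 11758 under rt-PA and 3354 to 21907 under rt-PA+Acu. Of these, 7 fell in Model vs Sham (background 26.6%). In the acupuncture comparison 0 were called by edgeR, at a background of 34.8%, or by DESeq2. There 1 (Ermn) was at an unadjusted p under 0.05 in edgeR, and all 8 had positive log2 fold changes. Among the rt-PA+Acu libraries the sums were 21907, 9142 and 3354 CPM where S100b was at 990, 837 and 766 CPM. In rt-PA the library with the highest sum, replicate 2 at 11758 CPM, had 429 CPM of S100b. The part of either cell type in the level of S100b was not tested. The genes most like S100b over the 12 libraries were Abhd3 (0.11), a phospholipase gene, Ndrg2 (0.13), an astrocyte-enriched gene, and Cxcl14 (0.13), a chemokine.

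**Figure D4:**
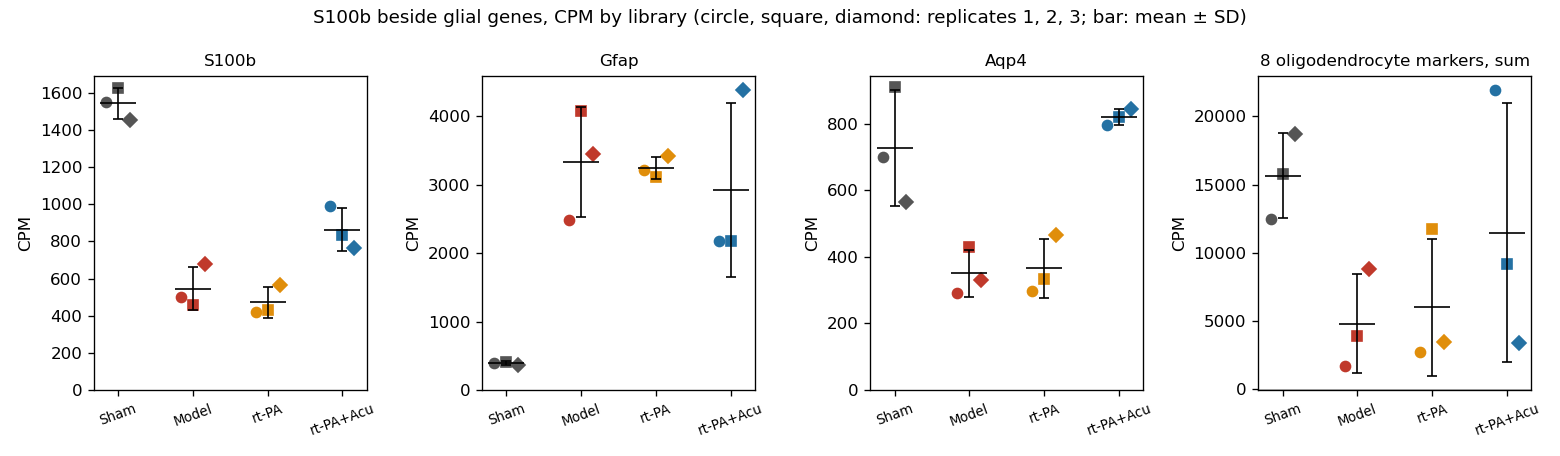
CPM (y axis, linear, from 0) of S100b, Gfap, Aqp4 and the sum of 8 oligodendrocyte markers in the 4 groups, with a marker for each library and bars for the mean ± SD. S100b and Aqp4 fall in Model and rt-PA and are higher under rt-PA+Acu, Gfap is above Sham in all 3 stroke groups, and the oligodendrocyte sum spreads from 3354 to 21907 under rt-PA+Acu.

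S100a1, a member best known from muscle and also made in brain, was at 27.3, 25.6 and 21.9 CPM in Sham, 5.27, 13.8 and 13.9 in Model, 8.32, 12 and 10.2 under rt-PA and 18.2, 12.9 and 11.5 under rt-PA+Acu. Sham was the highest group, and the 3 stroke groups were not in a clear order, since Model overlapped with the other two and rt-PA overlapped with rt-PA+Acu. S100a1 fell 2.27-fold in Model vs Sham (log2 fold change -1.18 ± 0.32, adjusted p = 0.0143), in all 13 alternatives too. In the acupuncture comparison, it had a log2 fold change of 0.48 ± 0.23 (adjusted p = 0.142), and against Sham it was 1.76-fold lower under rt-PA+Acu (-0.82 ± 0.19, adjusted p = 0.0491), a call lost in 9 of 13 alternatives, among them the fits without any 1 of the Sham libraries and without rt-PA+Acu replicate 2 or 3 (adjusted p up to 0.18).

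S100a16, a widely made member also found in astrocytes, changed least among the 6 called in Model vs Sham. It was at 74.9, 78.7 and 60.7 CPM in Sham, 41.4, 56.7 and 52.9 in Model, 57.3, 47.2 and 55.3 under rt-PA and 60.7, 58.7 and 79.6 under rt-PA+Acu. It fell 1.41-fold in Model vs Sham (log2 fold change -0.50 ± 0.14, adjusted p = 0.0188), which was lost without Sham replicate 1 or 2 and is under a log2 fold change of 1 in size, and had a log2 fold change of 0.32 ± 0.15 in the acupuncture comparison (adjusted p = 0.143) and of -0.10 ± 0.15 in rt-PA+Acu vs Sham (adjusted p = 0.722). Under rt-PA+Acu all 3 libraries were above all rt-PA libraries, by a narrow gap of 58.7 against 57.3 CPM. The groups did not overlap in 6648 of the 12999 genes tested in that comparison.

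Outside the 10 members, 7 further S100 genes had a row. S100a3, the neighbour of S100a4, rose in Model vs Sham from 1.54 to 1.66 CPM up to 4.05 to 4.40 (log2 fold change 1.41 ± 0.27, adjusted p = 0.00254), and S100a14 fell from 1.22 to 1.99 CPM down to 0.229 to 0.578 (-1.88 ± 0.49, adjusted p = 0.0116). S100a7a, S100g and S100vp had 0 counts in all 12 libraries, S100z had 1 count in all, and S100a5 had 14 counts under rt-PA+Acu replicate 3 and 1 count elsewhere.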

How the data were processed

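RNA from the cortex of 12 rats was sequenced after poly(A) selection with strand marking. Per the labels and the paper's methods, the authors aligned read pairs to mRatBN7.2 with STAR 2.7.10a and deposited raw whole-number counts per gene symbol from uniquely mapped pairs, made with Salmon 1.9.0. featureCounts 2.0.1 is also named, without a role. How estimates became whole numbers, and whether the molecular identifiers in the adapters were used, is not given in the sources used here, and any limit from 3 counts covers counting error alone. Libraries were grouped by their labels, with 1 rat each, and 0 columns were left unused.

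The tests used edgeR 4.0.16 in R 4.3.3 (filterByExpr, TMM factors 0.949 to 1.08, quasi-likelihood test, Benjamini-Hochberg adjustment over all genes tested, 6 libraries per comparison), with limma 3.58.1 loaded and DESeq2 1.42.0 as an alternative. Errors of log2 fold changes are standard errors from the test statistic. Ratios were tested with exact permutation in Python 3.11.15 with scipy 1.17.1, and plots drawn with matplotlib 3.10.9. Named genes are the members, the genes of fixed lists and the 3 genes of at least 1 CPM nearest to S100a9, S100a10 and S100b, after adding 0.5 CPM before log2. 1 of the genes nearest to S100a9 is not reported here. The members and lists were chosen with earlier results of these data known. Promoter sequences are RefSeq's, build GRCr8, which is not the build of the counts. The fits were tested on simulated data. Alternatives were DESeq2, RLE factors, library size alone, no filter, a minimum of 10 counts in each library, a joint fit of the 12 libraries, a replicate block, an added threshold of 1 on the absolute log2 fold change, no count added to ratios, and leaving out each library.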

Additional observations from a re-analysis of the deposited data

How the results depend on the processing

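Of 561 alternative values of member log2 fold changes, 491 kept direction and side of the threshold, 45 lost the call, 11 gained it and 14 changed sign. The 14 all came from leaving out a library in comparisons without a call: in Model vs Sham S100a8 ranged from -0.65 to 0.74 and S100a9 from -0.62 to 0.83, in rt-PA vs Model S100a1 from -0.445 to 0.0918, S100a10 from -0.31 to 0.22 and S100a16 from -0.0399 to 0.18, and in rt-PA+Acu vs Sham S100a11 from -0.24 to 0.47. The difference in the log2 ratio of S100a8 to S100a9 ranged from -0.20 to 0.15 in Model vs Sham and from -0.29 to 1.05 in rt-PA+Acu vs Sham.

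The number of members called was 3 with DESeq2 in rt-PA vs Model, and 3 of the 6 left to test in rt-PA+Acu vs rt-PA at a minimum of 10 counts in every library, which removes S100a8, S100a9 and S100a11. For Model vs Sham DESeq2 gave 5 called members and for the acupuncture comparison 7, where the fold change threshold left 5 each time. In rt-PA+Acu vs Sham it was 1 with library size alone, 1 with the replicate block, 2 with the fold change threshold and 0 to 4 when a library was left out. The cause was not tested. Replicate numbers gave no clear pairing of the rats: same-numbered libraries correlated between -0.15 and 0.18, and not every library correlated best with its own number. In Model vs Sham each library did so, but weakly, at 0.13, 0.07 and 0.05. With 3 rats per group such values cannot show that no pairing exists. With the block, 6, 0, 6 and 1 members were called in the 4 planned comparisons. Members near 3 counts, such as S100a8 in rt-PA+Acu, are limited by depth, and 3 rats per group limit all tests.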
